A study of Mus musculus with 9 samples.

Results

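The 46 genes described here are targets of interferons, the cytokines that cells release on infection or injury. They were chosen by symbol from the 27945 genes of a mouse liver RNA sequencing table, and all 46 were found in it and passed the filter on low counts. They comprise a type I core of 10 genes (Isg15, the Ifit genes and the Oas genes), an interferon gamma core of 9 genes (the Gbp and Irg GTPases) and 27 further genes in 5 roles. The study compared 3 groups of 3 liver libraries at 16 days. The combined group received glycyrrhizic acid together with gefitinib, the gefitinib group received gefitinib alone, and the saline group, labelled as sanitary saline, served as the control. Gefitinib blocks the kinase activity of the EGF receptor, whereas glycyrrhizic acid is a saponin of liquorice root. The sources used here do not give dose, route, strain, sex or age, and no group received glycyrrhizic acid alone. The labels number the replicates but do not say that each came from a separate animal, so the p-values measure only the spread between these libraries, which may be technical.

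As background, type I interferons bind the receptor Ifnar1/Ifnar2, whose kinases Jak1 and Tyk2 phosphorylate Stat2. It acts with Irf9 in a complex that binds the interferon-stimulated response element (ISRE) and turns on genes such as Isg15, Ifit1 and Oas1a. Interferon gamma binds Ifngr1/Ifngr2 and acts through Jak1 and Jak2, and its signal reaches the gamma-activated sequence (GAS) of target genes and turns on Irf1 and the GTPases of the Gbp and Irg families. The 2 programmes share many targets. In liver, hepatocytes, Kupffer cells and endothelium all carry interferon receptors.

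Promoter windows from RefSeq (GRCm38.p6, from 250 bases before to 50 bases after the start site) were found for 35 of the 46 genes. An ISRE core was searched as GAAANNGAAA and a GAS as TTCNNNGAA, each on both strands. The ISRE core was present in 19 of the 35 (54.3%), against 3.99% of all 27025 genes with a window. It was present in 6 of 9 windows of the type I core (66.7%) and in 6 of 7 of the interferon gamma core (85.7%). The GAS was present in 9 of the 35 (25.7%), against 9.55% of all genes, with 2 of 9 in the type I core (22.2%) and 3 of 7 in the interferon gamma core (42.9%). Both cores held both motifs, and a match is a description of the sequence, not a bound site. The 150 bases upstream of the start site are shown for 6 genes that the results turn on, read 5′ to 3′ on the gene's strand, with every ISRE core or GAS match in capitals. Isg15, Oas1a, Rsad2 and Bst2 are shown as genes with high levels in the combined group, and Igtp and Irgm2 as 2 neighbouring Irg genes with unlike values in the combined and gefitinib groups. All 6 hold an ISRE core. By contrast, Ubd, Irf7, Oasl1, Oasl2 and Ifi44, also higher in the combined group than in saline, hold neither motif in their windows.
Isg15: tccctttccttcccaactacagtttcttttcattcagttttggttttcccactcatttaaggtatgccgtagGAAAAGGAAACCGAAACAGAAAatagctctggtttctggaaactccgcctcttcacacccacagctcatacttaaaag
Oas1a: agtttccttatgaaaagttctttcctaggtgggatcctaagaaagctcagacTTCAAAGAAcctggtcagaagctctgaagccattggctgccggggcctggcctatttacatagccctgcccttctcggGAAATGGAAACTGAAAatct
Rsad2: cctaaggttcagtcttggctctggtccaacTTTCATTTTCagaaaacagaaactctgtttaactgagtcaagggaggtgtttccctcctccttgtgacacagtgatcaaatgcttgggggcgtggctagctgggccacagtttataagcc
Bst2: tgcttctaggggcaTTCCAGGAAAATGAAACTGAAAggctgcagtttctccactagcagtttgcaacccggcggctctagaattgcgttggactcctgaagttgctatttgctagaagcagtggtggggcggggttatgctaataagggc
Igtp: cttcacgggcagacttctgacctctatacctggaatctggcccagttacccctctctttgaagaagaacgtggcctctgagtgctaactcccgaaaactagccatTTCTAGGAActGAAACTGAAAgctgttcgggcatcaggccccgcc
Irgm2: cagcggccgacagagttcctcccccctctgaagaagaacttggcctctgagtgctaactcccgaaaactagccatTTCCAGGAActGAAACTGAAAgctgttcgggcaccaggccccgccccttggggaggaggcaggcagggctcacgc

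These stretches lie at chr4:156200819-156200968 (minus strand), chr5:120907526-120907675 (minus), chr12:26456453-26456602 (minus), chr8:71537473-71537622 (minus), chr11:58199406-58199555 (plus) and chr11:58214827-58214976 (plus). Isg15 has 3 overlapping ISRE cores, which begin 78, 72 and 66 bases before the start site. Oas1a has 2 overlapping ISRE cores close to the start site and a separate GAS further upstream. In Rsad2 the ISRE core is on the opposite strand. Bst2 has 2 overlapping ISRE cores, of which the first shares 3 bases with a GAS. Igtp and Irgm2 lie on the same strand with start sites 15421 bases apart, and both carry a GAS and an ISRE core with 2 bases between them. Aligned without gaps, the 2 upstream stretches were identical at 103 of 120 bases (85.8%), with a longest identical run of 38 bases.

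Levels are given as CPM, counts scaled to the library's size and composition, and as FPKM, the authors' values per transcript length and library size. A log2 fold change of 1 is a doubling, and a gene was called where edgeR's p, adjusted over all tested genes, was under 0.05. The 9 libraries held 56440871 to 60665156 counts each, and scaling factors (TMM) ran from 0.905 to 1.14, highest in the combined libraries. Without the scaling factors the median gene moved up by 0.171 log2 units for combined against gefitinib and by 0.199 for combined against saline, so the changes below are relative to TMM scaling. The share of higher genes among all genes called was then 79.9%, against 54.7% with TMM, for combined against gefitinib, and 78.7%, against 53.0%, for combined against saline. Albumin (Alb), the main hepatocyte marker, was at 46592, 47589 and 55431 CPM in the combined libraries, 60341, 58541 and 58726 CPM in the gefitinib libraries and 56359, 66362 and 52762 CPM in the saline libraries. Skeletal muscle transcripts were present in the combined libraries and gefitinib 1, where the 10 markers stood far above the other 5 libraries, with sums of 183, 138 and 159 CPM in the combined libraries, 210, 0.966 and 1.07 CPM in the gefitinib libraries and 0.626, 1.38 and 1.16 CPM in the saline libraries. Markers of other cell types are given after the summed levels below.

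In the liver given the combination, interferon targets were mostly at their highest. The mean level was highest in the combined group for 36 of the 46 genes (78.3%), in the gefitinib group for 9 (19.6%) and in the saline group for 1 (2.17%). Of all tested genes, 38.7% were highest in the combined, 26.3% in the gefitinib and 35% in the saline group. All 10 genes of the type I core and all 12 antiviral effectors were highest in the combined group, but only 4 of the 9 in the interferon gamma core. The saline mean was the lowest for 39 of the 46, and for 6150 of all 18113 tested genes. Library combined 1 held the highest single value for 25 genes, and library saline 2 the lowest for 26. Such counts for single libraries were not made over all genes. In bulk tissue, fewer cells of a type and less RNA per cell cannot be told apart.

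**Figure D1:**
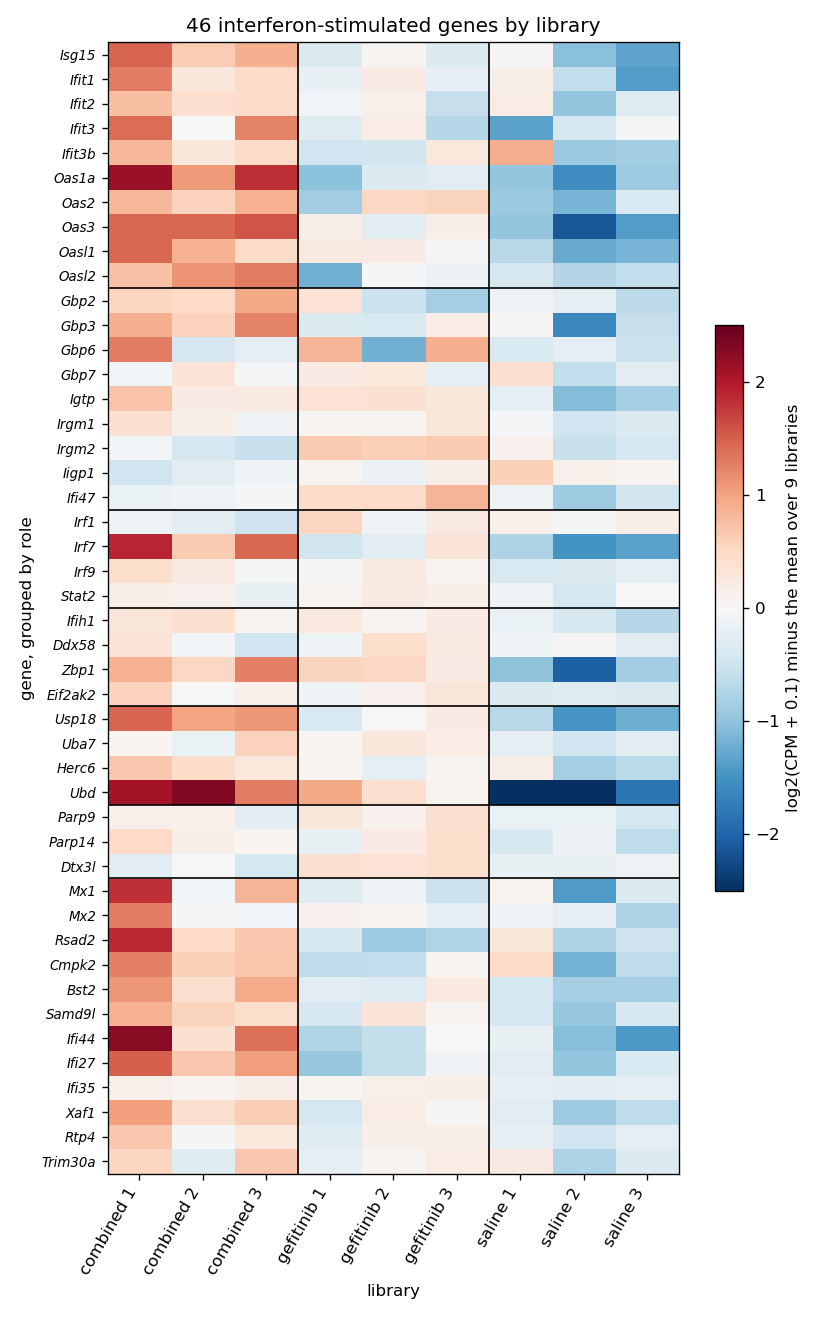
Levels of the 46 interferon-stimulated genes (rows, grouped by role with black lines between roles) in the 9 libraries (columns), as log2(CPM + 0.1) minus the gene's mean over the 9 libraries, where CPM is the count scaled to library size and composition (TMM). The combined libraries are mostly red and the saline libraries mostly blue, while Irgm2, Ifi47 and Dtx3l are reddest in the gefitinib libraries and Iigp1 in saline 1.

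Against gefitinib, 10 of the 46 genes rose (21.7%) and 3 fell (6.52%) in the combined group at an adjusted p under 0.05, against 4.96% and 4.11% of all 18113 tested genes called higher and lower. The 10 were Oas1a, Oas3, Oasl2, Irf7, Usp18, Ubd, Rsad2, Bst2, Ifi44 and Ifi27, and the 3 were Irgm2, Ifi47 and Dtx3l. All 3 combined libraries lay above all 3 gefitinib libraries for 23 genes, and below them for 4, where 16.2% and 15.0% of all genes did so. DESeq2 called 18 higher (39.1%) and 4 lower (8.7%), against 8.99% and 7.74% of all genes it tested. The median log2 fold change of the 46 was 0.56, against 0.01 over all genes. The number called fell to 6 without combined 1 or gefitinib 1, to 7 without gefitinib 2 and to 8 without combined 3 or gefitinib 3. Calls over all genes, 1644 with every library, fell in these fits too. They were 867 without combined 1, 751 without gefitinib 1, 1183 without gefitinib 2, 901 without combined 3 and 859 without gefitinib 3. Only Oas1a, Ifi27, Irgm2 and Dtx3l were called without each of the 9 libraries in turn. Gefitinib 1 is the 1 gefitinib library with the muscle transcripts that all 3 combined libraries also held.

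Against saline, 26 genes rose (56.5%) and 1, Iigp1, fell (2.17%) in the combined group, where 9.37% and 8.32% of all genes were called higher and lower. The combined libraries lay above all saline libraries for 32 genes and below them for 2, against 19.3% and 18.0% of all genes. DESeq2 called 33 higher (71.7%) and 1 lower (2.17%), against 11.7% and 9.69% of all genes it tested. The median log2 fold change was 0.94 for the 46 and -0.01 over all genes. Of the 27 calls, 16 held without each library in turn, and the count fell to 17 without combined 1 and to 18 without saline 2. Over all genes, calls fell from 3205 to 2065 without combined 1 and to 2136 without saline 2.

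Gefitinib alone left most of these genes without a call against saline. Ubd, Zbp1 and Ifi47 rose (6.52% of the 46, against 0.547% of all genes called higher), and none fell in edgeR's test, at an unadjusted p under 0.05, in DESeq2 or in limma, where edgeR called 0.591% of all genes lower, 6.85% were lower at an unadjusted p under 0.05 and DESeq2 called 2.11% lower. At an unadjusted p under 0.05, 22 of the 46 were higher (47.8%), against 7.25% of all genes, and DESeq2 called 13 higher (28.3%), against 2.29% of all genes it tested. The gefitinib libraries lay above all saline libraries for 19 genes, against 9.71% of all genes, and below them for none, against 10.2%. The median log2 fold change was 0.44, against 0.00 over all genes. No call was left without saline 2, 1 was left without gefitinib 1, 2 or 3 or without saline 3, and 5 were made without saline 1. Calls over all genes, 206 with every library, were 61 without saline 2, 47 without saline 3 and 171 without saline 1. They were 75, 32 and 52 without gefitinib 1, 2 and 3. The 3 comparisons share libraries, so their values are given side by side and were not compared with each other.

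**Figure D2:**
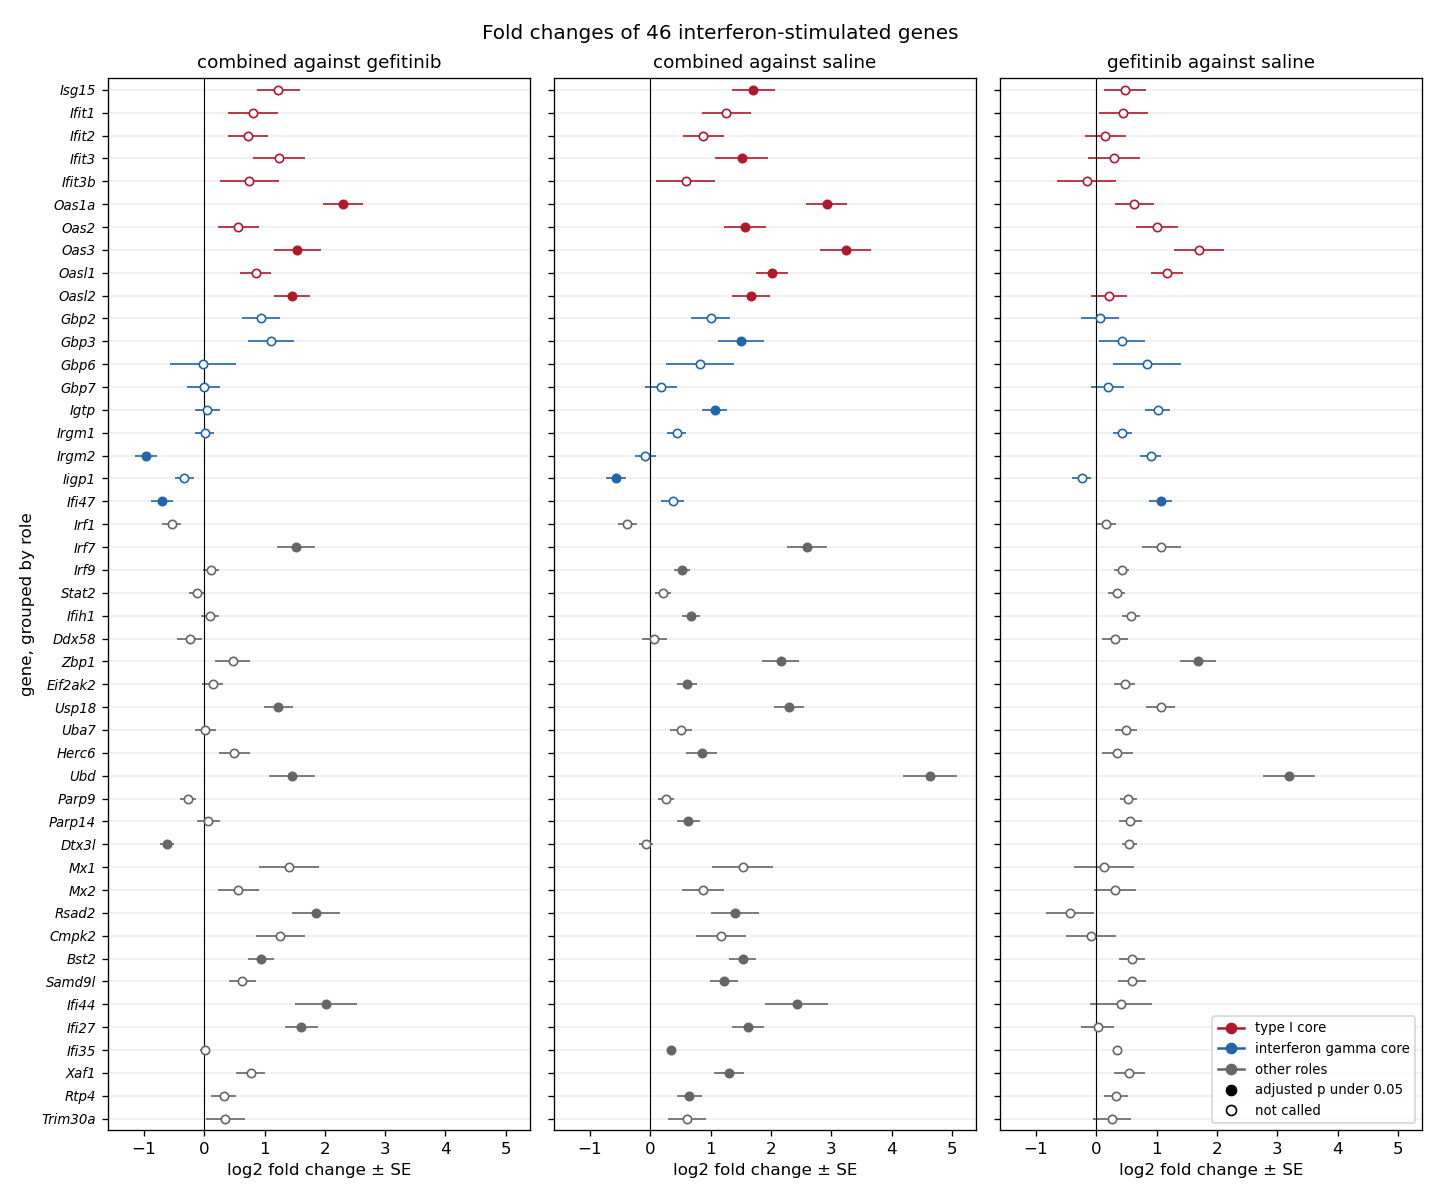
Log2 fold change with its standard error (horizontal axis) for the 46 genes (vertical axis, grouped by role) in the 3 comparisons, from the edgeR fit, with red for the type I core, blue for the interferon gamma core and grey for other roles, and filled points for genes called at an adjusted p under 0.05. Against gefitinib the red points lie at 0.56 to 2.30, whereas the blue points lie on both sides of 0, from -0.97 to 1.10.

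The summed levels of the 2 cores were set side by side. Per length and depth (FPKM), the 10 genes of the type I core summed to 67.5, 37.2 and 46.5 FPKM in the combined libraries, 15.7, 23.2 and 18.8 FPKM in the gefitinib libraries and 18.3, 9.66 and 10.7 FPKM in the saline libraries. All combined sums lay above the other 6, while the gefitinib and saline sums overlapped. The 9 genes of the interferon gamma core summed to 108, 92.3 and 96 FPKM in the combined libraries, 99.2, 97.9 and 110 FPKM in the gefitinib libraries and 104, 65.4 and 70.8 FPKM in the saline libraries. These FPKM sums overlapped between all 3 groups, and saline 1 was as high as the treated libraries. Without Iigp1 the combined sums were 74.5, 55.3 and 55.2 FPKM and the gefitinib sums 58.6, 60.5 and 64 FPKM, which overlapped. The saline sums were then 43.6, 24.6 and 29.9 FPKM, below every treated library. In TMM-scaled CPM the interferon gamma core summed to 418, 400 and 427 CPM in the combined libraries, 507, 452 and 538 CPM in the gefitinib libraries and 573, 399 and 405 CPM in the saline libraries. On that scale every combined library lay below every gefitinib library, while the saline libraries overlapped both. Iigp1 was the largest part of these CPM sums, at 193, 224 and 253 CPM in the combined and 288, 247 and 308 CPM in the gefitinib libraries. The separation is therefore one of the whole sum, and it does not describe the rest of the core. Taken singly, 2 of the 9 genes had all combined libraries below all gefitinib libraries, and 2 had them above. Iigp1 itself overlapped between these groups. Of the 9 genes, 4 had a positive and 5 a negative log2 fold change for combined against gefitinib.

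The interferon gamma sum stood 1.6, 2.48 and 2.06 times above the type I core in the combined libraries, 6.31, 4.23 and 5.85 times in the gefitinib libraries and 5.68, 6.78 and 6.6 times in the saline libraries. A single gene weighed heavily on each sum. Iigp1 made up 57.8% to 62.4% of the interferon gamma sum in the saline libraries, and Isg15 made up 32.3% to 51.1% of the type I sum over the 9 libraries. Without both genes the ratio was 1.97, 2.61 and 1.98 in the combined libraries, 6.64, 4.59 and 5.56 in the gefitinib libraries and 4.88, 4.43 and 4.11 in the saline libraries, so the combined libraries stayed lowest.

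By the median of their genes, the type I core had a log2 fold change of 1.04 for combined against gefitinib, 1.62 for combined against saline and 0.46 for gefitinib against saline. The interferon gamma core had -0.01, 0.44 and 0.43. Without scaling factors the interferon gamma median for combined against gefitinib was 0.18, close to the shift of all genes given above. Without saline 1, both medians for gefitinib against saline were 0.85. The difference between the cores was described and not tested, because the genes were grouped with earlier results known.

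**Figure D3:**
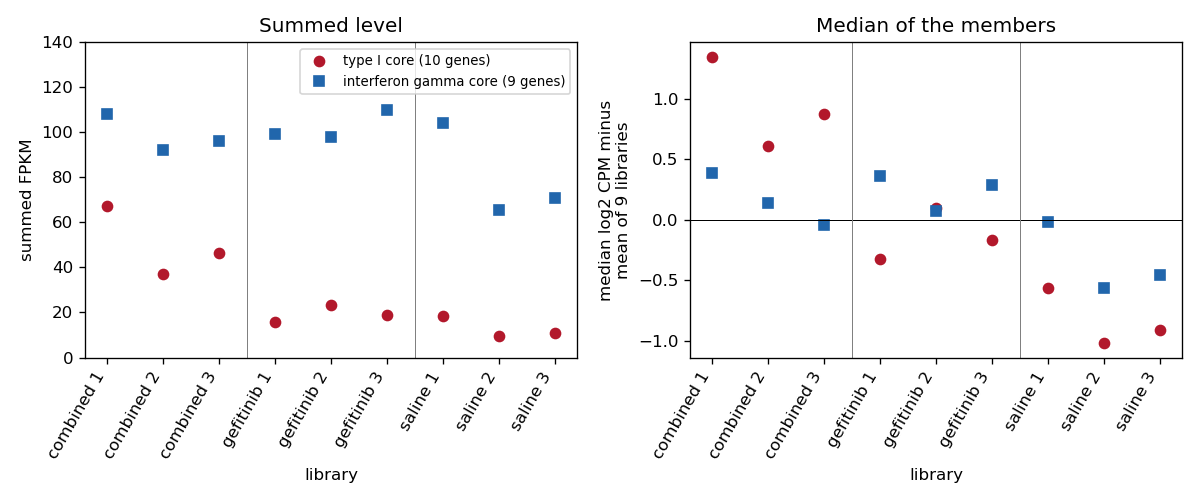
Left, summed FPKM of the type I core (circles, 10 genes) and the interferon gamma core (squares, 9 genes) in each library; right, the median over each core of log2 CPM minus the gene's mean over the 9 libraries. The type I sums are 37.2 to 67.5 FPKM in the combined libraries and 9.66 to 23.2 FPKM in the others, while the interferon gamma sums in FPKM overlap between the groups.

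Markers of some other cell types moved with the same groups. The counts of markers called below stand beside 4.96% and 4.11% of all genes called higher and lower in the combined group against gefitinib, and 9.37% and 8.32% against saline. The 15 markers of monocyte-derived macrophages and dendritic cells summed to 650, 738 and 539 CPM in the combined libraries, 85.9, 111 and 116 CPM in the gefitinib libraries and 88.1, 71.3 and 89.5 CPM in the saline libraries. Gpnmb and Mmp12 made up much of the combined sums, with means of 16776 and 12811 counts in the combined group. Their means were 433 and 754 counts in the gefitinib group and 84.3 and 69 counts in the saline group. Of 14 tested, 6 were called higher in the combined group against gefitinib (42.9%), and 9 higher (64.3%) and 1 lower (7.14%) against saline. The 1 called lower was Zbtb46, with means of 200 counts in the combined and 462 counts in the saline group. Flt3 and Cd209a had at most 24 counts in any library. The 14 Kupffer cell and macrophage markers summed to 652, 784 and 958 CPM in the combined libraries, 449, 521 and 392 CPM in the gefitinib libraries and 395, 292 and 466 CPM in the saline libraries. Lyz2 and Cd68 made up much of that difference, and the other 12 summed to 375, 398 and 674 CPM in the combined libraries, 403, 440 and 353 CPM in the gefitinib libraries and 359, 262 and 436 CPM in the saline libraries, which overlapped between the groups. Of the 14, 2 were called higher against gefitinib (14.3%), and 5 higher (35.7%) and 1, Mrc1, lower against saline. Neutrophil markers were highest in 1 combined library, with sums of 40.9, 14 and 205 CPM in the combined libraries, 15, 34.5 and 33.9 CPM in the gefitinib libraries and 5.11, 6.69 and 3.99 CPM in the saline libraries, and 8 of 11 tested were called higher in the combined group against saline.

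Markers of the cells that line and support the sinusoids moved in different directions. The 12 markers of sinusoidal endothelium summed to 80.5, 117 and 121 CPM in the combined libraries, 167, 173 and 152 CPM in the gefitinib libraries and 392, 352 and 454 CPM in the saline libraries, and in the combined group 6 were called lower against gefitinib and all 12 against saline. The 12 markers of stellate cells and fibroblasts summed to 416, 502 and 430 CPM in the combined libraries, 159, 208 and 187 CPM in the gefitinib libraries and 295, 274 and 215 CPM in the saline libraries. The collagen genes Col1a1, Col1a2 and Col3a1 and the matrix gene Lum were called higher in the combined group against both other groups, while Lrat and Ngfr were called lower against saline. Sums of 12 hepatocyte markers were 75814, 82381 and 95059 CPM in the combined libraries, 101904, 100198 and 99504 CPM in the gefitinib libraries and 99861, 111668 and 99156 CPM in the saline libraries, lowest in the combined libraries. Alb, given above, was the largest part of these sums. Against gefitinib 9 of the 12 had a negative and 3 a positive log2 fold change, with 2 called lower and 1 higher. Against saline 10 were negative and 2 positive, with 3 called lower and 1 higher.

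Sums of lymphocyte markers overlapped between the combined group and each other group. Sums of T cell markers were 6.95 to 10.5, 7.47 to 13.4 and 5.81 to 13.9 CPM in the combined, gefitinib and saline libraries, those of NK and cytotoxic cells 7.15 to 12, 11.1 to 12.2 and 4.36 to 9.65 CPM, and those of B and plasma cells 18.2 to 39.6, 37.1 to 50.8 and 12.2 to 35.2 CPM. The 7 markers of plasmacytoid dendritic cells, which are known for type I interferon, summed to 62.9, 46.8 and 18.1 CPM in the combined libraries, 14.5, 21.7 and 13.5 CPM in the gefitinib libraries and 15, 9.96 and 11.9 CPM in the saline libraries. Ly6d was the largest part of the combined sums, at 51.3, 34.5 and 7.98 CPM in the combined libraries, 4.29, 8.67 and 4.34 CPM in the gefitinib libraries and 1.22, 1.17 and 0.578 CPM in the saline libraries, and was the 1 of 6 tested that was called, higher in the combined group against gefitinib and against saline. Siglech, a defining marker of these cells, was at 0.293, 0.565 and 0.519 CPM in the combined libraries, 0.63, 0.0999 and 0.157 CPM in the gefitinib libraries and 0.214, 0 and 0.299 CPM in the saline libraries. The part of all these cells in the levels of the interferon targets was not tested.

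The founding members of the type I programme were each at their highest mean level in the combined livers. Isg15, a ubiquitin-like protein that is attached to other proteins, was at 20.8, 11.7 and 14 CPM in the combined libraries, 5.93, 7.96 and 5.9 CPM in the gefitinib libraries and 7.67, 3.61 and 2.95 CPM in the saline libraries. All combined libraries were above the other 6, and gefitinib and saline overlapped. Isg15 rose against saline, with a log2 fold change of 1.71 ± 0.36 (SE, adjusted p = 0.0102), while against gefitinib it was 1.23 ± 0.35 (adjusted p = 0.0577) and missed the threshold. It was called against saline without each library in turn. Per length, Isg15 was the highest of the type I core, with 21.5 ± 7.29 FPKM in the combined, 8.04 ± 1.68 FPKM in the gefitinib and 5.64 ± 3.22 FPKM in the saline libraries (SD, n = 3).

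The Ifit genes, which encode tetratricopeptide proteins that bind foreign RNA, were low and variable. Ifit1 was at 7.48, 3.7 and 4.28 CPM in the combined libraries, 2.65, 3.53 and 2.64 CPM in the gefitinib libraries and 3.38, 1.96 and 1.1 CPM in the saline libraries. Ifit2 was at 4.2, 3.31 and 3.4 CPM in the combined libraries, 2.32, 2.68 and 1.61 CPM in the gefitinib libraries and 2.79, 1.21 and 1.94 CPM in the saline libraries. Both were higher in every combined library than in any other library, yet neither passed the test against saline (log2 fold changes 1.26 ± 0.41 and 0.88 ± 0.34, adjusted p = 0.0617 and 0.104) or against gefitinib (0.81 and 0.72).

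Ifit3 was at 11.6, 4.35 and 10.4 CPM in the combined libraries, 3.55, 5.01 and 2.62 CPM in the gefitinib libraries and 1.68, 3.21 and 4.29 CPM in the saline libraries. Combined 2 lay within the gefitinib range, and the rise against saline (1.52 ± 0.44, adjusted p = 0.0392) was lost without combined 1, combined 3, gefitinib 1, saline 1 or saline 2 (adjusted p from 0.0551 to 0.127). Ifit3b, its close copy, was at 5.43, 3.67 and 4.25 CPM in the combined libraries, 2.11, 2.18 and 3.66 CPM in the gefitinib libraries and 5.72, 1.54 and 1.6 CPM in the saline libraries. The single highest Ifit3b value was in saline 1, where Ifit3 had its lowest, and Ifit3b was called in no comparison. Of the 75-base stretches of Ifit3, 41.1% also occur in Ifit3b, and 35.7% of those of Ifit3b occur in Ifit3, so the split of reads between these genes is uncertain.

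The Oas genes encode synthases of 2′-5′ oligoadenylates, the second messengers that activate the nuclease RNase L, and they held the steepest rises of the type I core. Oas1a was at 21.7, 10.2 and 17.6 CPM in the combined libraries, 2.31, 3.78 and 3.97 CPM in the gefitinib libraries and 2.41, 1.58 and 2.5 CPM in the saline libraries. The combined libraries were all far above the other 6, whose ranges overlapped. Oas1a rose 4.91-fold against gefitinib, with a log2 fold change of 2.30 ± 0.33 (adjusted p = 0.00315), and 7.61-fold against saline, with 2.93 ± 0.34 (adjusted p = 0.000536). Of its 75-base stretches, 47.6% also occur in Oas1g, a neighbouring copy outside the 46 genes, so reads may be shared. Oas1g itself rose in the same comparisons, by 2.50 ± 0.45 against gefitinib (adjusted p = 0.00946) and 3.25 ± 0.47 against saline (adjusted p = 0.00158).

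Per length, Oas3 was the lowest gene of the core, at 0.403, 0.121 and 0.0328 FPKM on average in the combined, gefitinib and saline groups, and it had the largest log2 fold change of the core against saline. It was at 2.87, 2.86 and 3.19 CPM in the combined libraries, 1.13, 0.816 and 1.12 CPM in the gefitinib libraries and 0.465, 0.154 and 0.317 CPM in the saline libraries. The 3 groups did not overlap, and the combined libraries lay close together. Its log2 fold change was 3.24 ± 0.42 against saline (adjusted p = 0.00102) and 1.54 ± 0.39 against gefitinib (adjusted p = 0.0383), and the second call was lost without any 1 of the combined or gefitinib libraries (adjusted p from 0.0832 to 0.109). For gefitinib against saline it was 1.70 ± 0.41 (adjusted p = 0.0922). Oas2 was at 16, 13.5 and 16.5 CPM in the combined libraries, 4.9, 13 and 13.2 CPM in the gefitinib libraries and 4.66, 3.96 and 6.85 CPM in the saline libraries. Gefitinib 2 and 3 were nearly as high as combined 2, while gefitinib 1 was within the saline range, and Oas2 rose against saline (1.57 ± 0.35, adjusted p = 0.0137) without passing against gefitinib (0.56 ± 0.34, adjusted p = 0.356). The call was lost without saline 2 (adjusted p = 0.0546).

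The Oas-like genes behaved unlike each other in the gefitinib group. Oasl1, a protein without synthase activity that restrains Irf7 translation in mice, was at 20, 13.5 and 10.2 CPM in the combined libraries, 8.65, 8.49 and 7.09 CPM in the gefitinib libraries and 4.5, 3.02 and 3.25 CPM in the saline libraries. The 3 groups stood apart in steps, and Oasl1 rose in the combined group against saline (2.02 ± 0.26, adjusted p = 0.000982) without passing against gefitinib (0.85 ± 0.25, adjusted p = 0.0662) or for gefitinib against saline (1.17 ± 0.26, adjusted p = 0.0723). Oasl2 was at 7.76, 10.2 and 11.4 CPM in the combined libraries, 1.96, 4.55 and 4.2 CPM in the gefitinib libraries and 3.49, 2.77 and 2.99 CPM in the saline libraries. Gefitinib 1 was below every saline library, and Oasl2 rose against gefitinib (1.46 ± 0.30, adjusted p = 0.0181) and against saline (1.67 ± 0.31, adjusted p = 0.00552). The call against gefitinib was lost without combined 2 or combined 3 (adjusted p = 0.0504 and 0.0617).

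**Figure D4:**
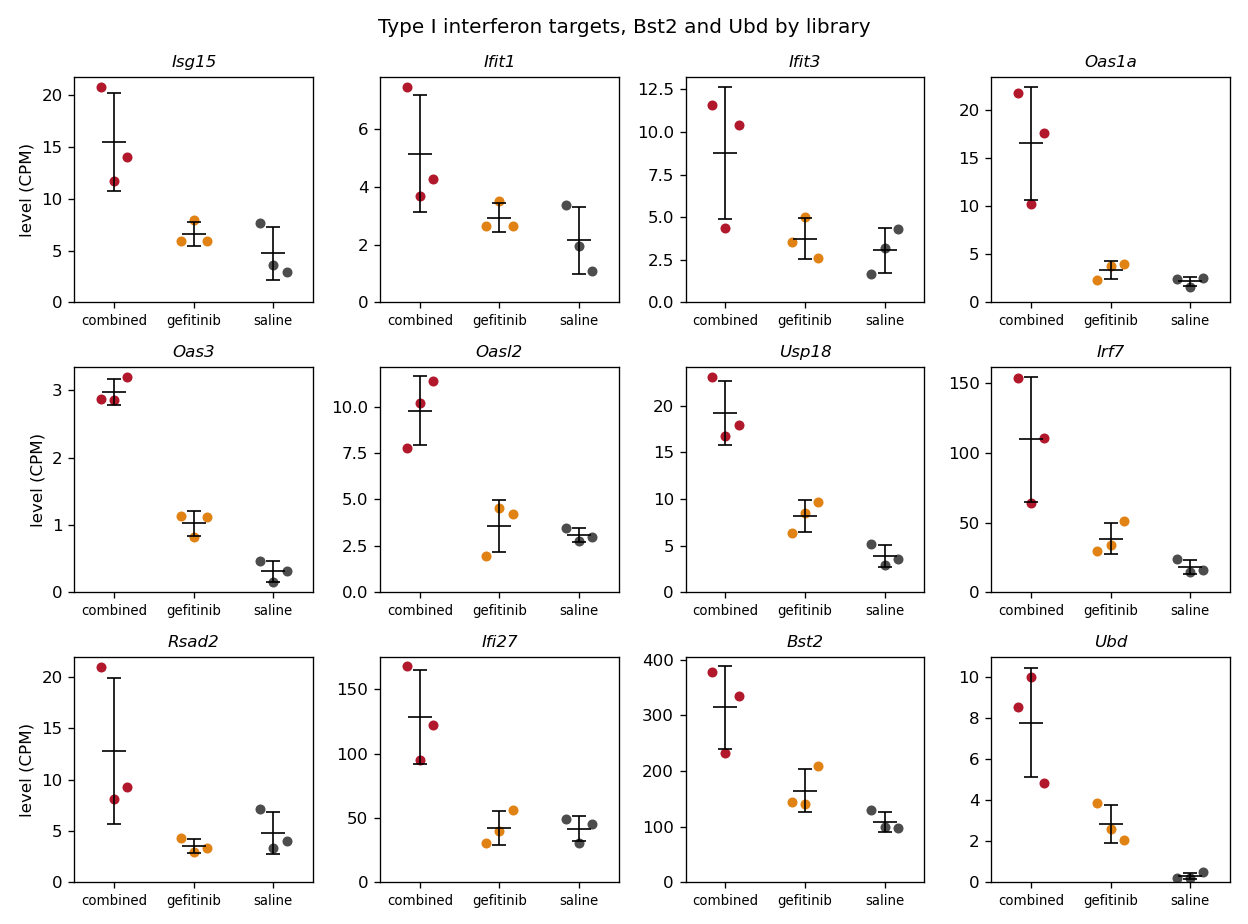
CPM (vertical axes, from 0) of 12 genes in each library (points), with the mean and SD of the 3 libraries of a group (bars), for the combined, gefitinib and saline groups from left to right. Oas1a, Ifi27 and Bst2 are highest in the 3 combined libraries, while Ubd stands in 3 steps with saline below 0.5 CPM.

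Genes of the interferon gamma core were called in both directions. The Irg genes encode immunity-related GTPases that attack the vacuoles of intracellular parasites and bacteria. Iigp1 was at 193, 224 and 253 CPM in the combined libraries, 288, 247 and 308 CPM in the gefitinib libraries and 410, 297 and 288 CPM in the saline libraries, and was the only 1 of the 46 genes with its highest mean in the saline group. Saline libraries were all above the combined libraries, and gefitinib libraries overlapped both. Iigp1 fell in the combined group against saline (-0.57 ± 0.16, adjusted p = 0.0398), and the call was lost without combined 1, combined 2, saline 1, saline 2 or any gefitinib library (adjusted p from 0.0503 to 0.129) and without scaling factors (-0.37, adjusted p = 0.137). Against gefitinib it was -0.33 ± 0.16 (adjusted p = 0.254).

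Irgm2, a regulatory member of the family, was high with gefitinib alone. It was at 29.7, 23.4 and 21.1 CPM in the combined libraries, 49.4, 46.9 and 49.2 CPM in the gefitinib libraries and 33.6, 21.2 and 23.4 CPM in the saline libraries. Every gefitinib library was above every other library, whereas combined and saline overlapped. In the combined group Irgm2 fell against gefitinib (-0.97 ± 0.18, adjusted p = 0.0113), also without each library in turn, and differed by -0.08 ± 0.18 from saline (adjusted p = 0.825). For gefitinib against saline the log2 fold change was 0.90 ± 0.18 (adjusted p = 0.0523), which missed the threshold. Ifi47, another Irg GTPase, was at 20.3, 21.3 and 22.4 CPM in the combined libraries, 31.3, 31.8 and 41.2 CPM in the gefitinib libraries and 20.8, 12.2 and 16.6 CPM in the saline libraries. The gefitinib libraries were again above all others. Ifi47 rose with gefitinib against saline (1.07 ± 0.19, adjusted p = 0.0353) and fell in the combined group against gefitinib (-0.70 ± 0.19, adjusted p = 0.0441). Both calls were fragile, since each was lost on leaving out any 1 of 7 libraries (adjusted p from 0.0546 to 0.116 and from 0.0609 to 0.145), and the second was also lost without scaling factors (adjusted p = 0.118).

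Igtp, the neighbour of Irgm2 with the closely similar upstream sequence shown above, overlapped between the treated groups. It was at 77.9, 54.7 and 55.8 CPM in the combined libraries, 61.3, 62.1 and 58.1 CPM in the gefitinib libraries and 40.6, 22.3 and 26.6 CPM in the saline libraries. All 6 treated libraries were above all saline libraries, and combined and gefitinib overlapped. Igtp rose in the combined group against saline (1.07 ± 0.21, adjusted p = 0.00789), also without each library in turn. Against gefitinib the combined group differed by 0.05 ± 0.21 (adjusted p = 0.918), and gefitinib differed from saline by 1.02 ± 0.21 (adjusted p = 0.0588). The exons of Igtp and Irgm2 share 162 bases on the same strand, which is 8.01% of Igtp and 4.39% of Irgm2, so a small part of their reads may be interchanged. Irgm1, another regulatory member, was at 55.7, 47 and 39.8 CPM in the combined libraries, 44.1, 44.8 and 52.8 CPM in the gefitinib libraries and 41.9, 30 and 33.1 CPM in the saline libraries. Its gefitinib values were above all saline values and overlapped the combined ones, and it was called in no comparison.

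The Gbp genes encode guanylate-binding proteins, large GTPases that coat and lyse pathogens. Gbp3 was at 9.61, 7.68 and 12.3 CPM in the combined libraries, 4.02, 3.91 and 5.9 CPM in the gefitinib libraries and 5.29, 1.62 and 3.43 CPM in the saline libraries. Combined libraries were above all others, and Gbp3 rose against saline (1.51 ± 0.38, adjusted p = 0.0234), a call lost without combined 1, combined 3 or saline 3 (adjusted p = 0.0576, 0.0782 and 0.0683). Gbp2 was at 6.4, 6.19 and 8.59 CPM in the combined libraries, 5.64, 2.98 and 2.4 CPM in the gefitinib libraries and 4.08, 3.75 and 2.76 CPM in the saline libraries. It too was highest in the combined libraries, without a call (adjusted p = 0.103 against gefitinib and 0.0596 against saline). Gbp2 and Gbp3 thus had log2 fold changes against gefitinib of 0.94 and 1.10, near the median of the type I core.

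Gbp7 was at 7.86, 10.5 and 8.06 CPM in the combined libraries, 9.6, 9.99 and 7.05 CPM in the gefitinib libraries and 11.1, 5.4 and 6.79 CPM in the saline libraries, with overlap in every comparison. Gbp6 was at 17.6, 5.32 and 6.15 CPM in the combined libraries, 13, 3.05 and 13.5 CPM in the gefitinib libraries and 5.52, 6.04 and 4.89 CPM in the saline libraries. It varied within both treated groups by more than it differed between them, and 67.3% of its 75-base stretches occur in other genes, so its level is uncertain. For Gbp7 that share was 11.3%.

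**Figure D5:**
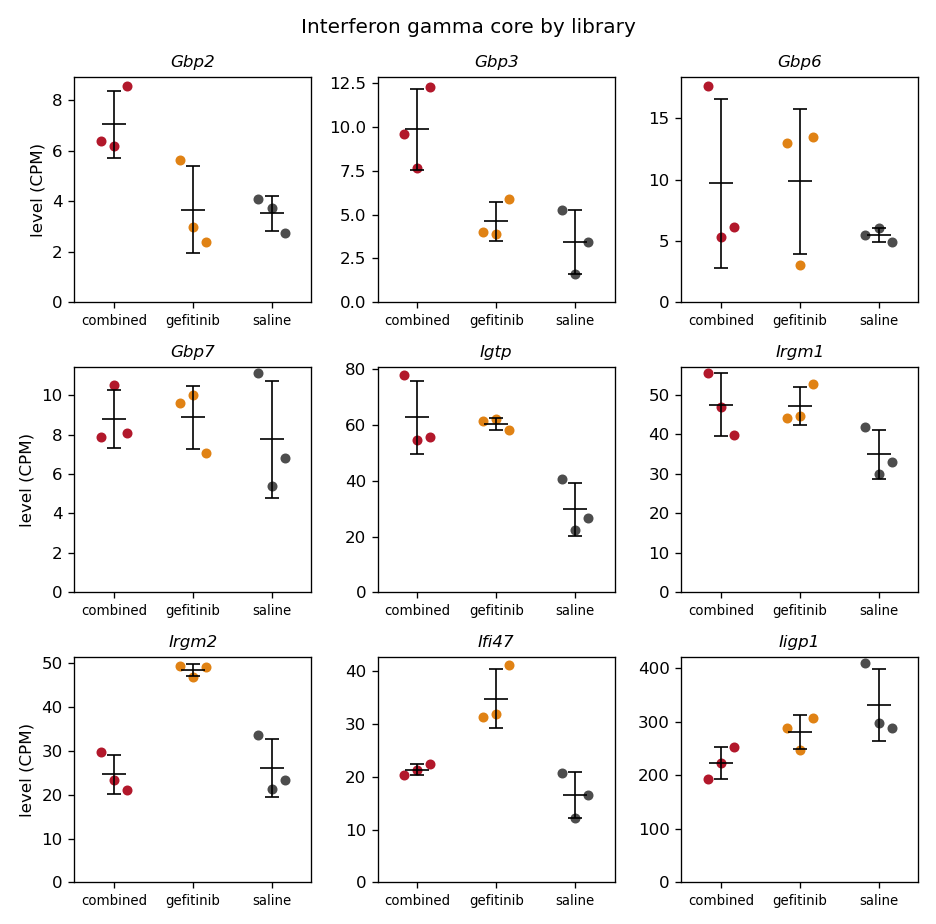
CPM (vertical axes, from 0) of the 9 genes of the interferon gamma core in each library (points), with the mean and SD of the 3 libraries of a group (bars), for the combined, gefitinib and saline groups from left to right. Irgm2 and Ifi47 are highest in the gefitinib libraries, Igtp is high in both treated groups, and Iigp1 is 193 to 253 CPM in the combined and 288 to 410 CPM in the saline libraries.

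Among transcription factors, Irf7 stood out. Irf7, the factor that amplifies type I interferon production, was at 154, 64.5 and 111 CPM in the combined libraries, 29.9, 34.2 and 51 CPM in the gefitinib libraries and 23.8, 14.4 and 16.1 CPM in the saline libraries. The 3 groups did not overlap. Irf7 rose in the combined group 6.06-fold against saline (log2 fold change 2.60 ± 0.33, adjusted p = 0.000935) and 2.86-fold against gefitinib (1.52 ± 0.32, adjusted p = 0.0191). The call against gefitinib was lost without combined 1, combined 3, gefitinib 1 or gefitinib 2 (adjusted p from 0.0527 to 0.0806).

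Irf9, which gives its complex with Stat2 the DNA binding, was at 44, 38 and 31.2 CPM in the combined libraries, 33.2, 38 and 33.7 CPM in the gefitinib libraries and 24.9, 25.6 and 27.7 CPM in the saline libraries. It rose in the combined group against saline (0.53 ± 0.13, adjusted p = 0.0204), a call lost without combined 1, combined 2, saline 1 or saline 2 (adjusted p from 0.0547 to 0.0729). Stat2, its partner, was at 88.5, 84.9 and 69.7 CPM in the combined libraries, 83.6, 92.5 and 88.3 CPM in the gefitinib libraries and 72.5, 57.9 and 79.2 CPM in the saline libraries and was called in no comparison. Irf1, an early factor induced by interferon gamma, ran the other way, at 34.1, 30.9 and 25.9 CPM in the combined libraries, 53.9, 34.6 and 43.5 CPM in the gefitinib libraries and 40.7, 35.8 and 41.8 CPM in the saline libraries. All combined libraries were below all others, but neither difference passed the test (-0.54 ± 0.16 against gefitinib, adjusted p = 0.0724, and -0.38 ± 0.16 against saline, adjusted p = 0.144). Stat2 had the highest level per length of the 4 in the saline group, with 13.3 ± 2.03, 12.7 ± 1.09 and 9.79 ± 1.74 FPKM in the combined, gefitinib and saline libraries.

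Of the RNA and DNA sensors, Zbp1 changed most. Zbp1, a sensor of Z-form nucleic acids that can trigger necroptosis, was at 15.7, 12.3 and 20.6 CPM in the combined libraries, 12.6, 12.4 and 9.92 CPM in the gefitinib libraries and 4.22, 2.02 and 4.65 CPM in the saline libraries. Both treated groups were above saline and overlapped each other. Zbp1 rose against saline in the combined group (2.16 ± 0.31, adjusted p = 0.00153) and with gefitinib alone (1.68 ± 0.30, adjusted p = 0.0377), and the second call was lost on leaving out combined 1 or any 1 of the 6 libraries compared (adjusted p from 0.0525 to 0.131). Ifih1, the cytosolic sensor MDA5 of long double-stranded RNA, was at 22.7, 24.5 and 19.3 CPM in the combined libraries, 21.8, 19.1 and 21.2 CPM in the gefitinib libraries and 16.3, 13.9 and 11.2 CPM in the saline libraries. Its pattern was the same in order, and it rose in the combined group against saline (0.68 ± 0.15, adjusted p = 0.0139).

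Eif2ak2, the kinase PKR that halts translation when double-stranded RNA is present, was at 20.2, 13.4 and 14.6 CPM in the combined libraries, 12.6, 14.5 and 16.7 CPM in the gefitinib libraries and 10.5, 10.8 and 10.4 CPM in the saline libraries. It rose in the combined group against saline (0.61 ± 0.17, adjusted p = 0.0379), and the call was lost without combined 1, combined 3, gefitinib 2 or any saline library (adjusted p from 0.0507 to 0.127). Ddx58, the sensor RIG-I, was at 23.1, 17.5 and 12.9 CPM in the combined libraries, 17, 24.7 and 21.5 CPM in the gefitinib libraries and 17, 18.7 and 15.3 CPM in the saline libraries. It overlapped in all comparisons and was called in none.

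The genes of ubiquitin-like conjugation held the largest change of all 46. Ubd, which encodes the ubiquitin-like protein FAT10 that marks proteins for degradation, was at 8.54, 9.99 and 4.82 CPM in the combined libraries, 3.85, 2.61 and 2.05 CPM in the gefitinib libraries and 0.232, 0.212 and 0.485 CPM in the saline libraries. The 3 groups did not overlap and stood in steps. Ubd rose 25-fold in the combined group against saline (log2 fold change 4.64 ± 0.45, adjusted p = 0.000234), 9.11-fold with gefitinib against saline (3.19 ± 0.43, adjusted p = 0.0137) and 2.74-fold in the combined group against gefitinib (1.45 ± 0.38, adjusted p = 0.043). The call of gefitinib against saline was lost without saline 2 (adjusted p = 0.0527), and that against gefitinib without combined 1, combined 2, saline 1 or any gefitinib library (adjusted p from 0.0526 to 0.139). Ubd is known to respond to interferon gamma together with tumour necrosis factor.

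Usp18, the protease that removes Isg15 and damps the type I receptor, was at 23.1, 16.7 and 17.9 CPM in the combined libraries, 6.38, 8.46 and 9.69 CPM in the gefitinib libraries and 5.15, 2.96 and 3.55 CPM in the saline libraries. Here too the groups stood apart in steps. Usp18 rose in the combined group against saline (2.30 ± 0.25, adjusted p = 0.000373) and against gefitinib (1.23 ± 0.24, adjusted p = 0.0129), the second lost without gefitinib 1 (adjusted p = 0.0518). Herc6, the ligase that attaches Isg15 in mice and shares 13.7% of its exon bases with Gm45193, was at 14.1, 12.3 and 10.7 CPM in the combined libraries, 9.33, 7.54 and 9.34 CPM in the gefitinib libraries and 10, 4.96 and 5.54 CPM in the saline libraries. It rose against saline (0.85 ± 0.26, adjusted p = 0.0462), a call lost on leaving out any library except saline 1 (adjusted p from 0.0575 to 0.139). Uba7, the enzyme that activates Isg15, was at 21.6, 18.6 and 30.8 CPM in the combined libraries, 21.4, 25.3 and 23.6 CPM in the gefitinib libraries and 18, 14.7 and 17.1 CPM in the saline libraries. It was above saline in both treated groups without a call (0.51 ± 0.18 for combined against saline, adjusted p = 0.0788) and differed by 0.02 between combined and gefitinib.

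The trio Parp9, Parp14 and Dtx3l was at its highest with gefitinib or level between the treated groups. Dtx3l, a ubiquitin ligase that works in a complex with Parp9, was at 24.2, 29.2 and 21.4 CPM in the combined libraries, 38.4, 37.3 and 39.5 CPM in the gefitinib libraries and 25.6, 25.8 and 27.1 CPM in the saline libraries. Every gefitinib library was above every other library, as for Irgm2 and Ifi47. Dtx3l fell in the combined group against gefitinib (-0.62 ± 0.12, adjusted p = 0.0126), also without each library in turn, but not without scaling factors (-0.45, adjusted p = 0.0508). Parp9, an ADP-ribosyltransferase family protein, was at 42.5, 42 and 31.9 CPM in the combined libraries, 47.4, 41.6 and 51.1 CPM in the gefitinib libraries and 34.4, 34.4 and 28.5 CPM in the saline libraries. Gefitinib was above saline in every library, with no call (0.53 ± 0.14, adjusted p = 0.117). The exons of Parp9 and Dtx3l overlap by 458 bases on opposite strands, and the sources used here do not say whether counting used strand, so some reads may be shared.

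Parp14, a mono-ADP-ribosyltransferase, was at 38.1, 29.7 and 27.9 CPM in the combined libraries, 23.7, 30.9 and 36.6 CPM in the gefitinib libraries and 20.3, 24.3 and 17.2 CPM in the saline libraries. It rose in the combined group against saline (0.63 ± 0.19, adjusted p = 0.0466). That call was lost without any 1 combined library, gefitinib 2, saline 1 or saline 3 (adjusted p from 0.0597 to 0.16).

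The antiviral effectors were all highest in the combined group, with log2 fold changes from 0.01 to 2.02 against gefitinib (median 0.85, 4 of 12 called) and from 0.35 to 2.43 against saline (median 1.27, 8 of 12 called). Bst2, or tetherin, which holds budding virions on the cell surface, was the most abundant of the 46 per length, at 421, 246 and 347 FPKM in the combined libraries, 131, 137 and 200 FPKM in the gefitinib libraries and 124, 87.7 and 90.5 FPKM in the saline libraries. It made up 43.3% to 49.5% of the summed FPKM of the 46 genes in the combined libraries, 35.2% to 42.3% in the gefitinib libraries and 33.6% to 36% in the saline libraries. In CPM it was at 378, 232 and 334 CPM in the combined libraries, 144, 140 and 209 CPM in the gefitinib libraries and 130, 99 and 98.5 CPM in the saline libraries, with no overlap between groups. Bst2 rose against saline (1.53 ± 0.22, adjusted p = 0.00162) and against gefitinib (0.94 ± 0.22, adjusted p = 0.0271), the second lost without combined 1, combined 3, gefitinib 1 or gefitinib 2 (adjusted p from 0.0778 to 0.104).

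Ifi27, a small hydrophobic protein, had the next highest level per length in the combined group, and in CPM it was at 168, 95.3 and 122 CPM in the combined libraries, 30.8, 39.5 and 56.2 CPM in the gefitinib libraries and 49.3, 30.5 and 45.4 CPM in the saline libraries. The combined libraries were all above the others, and gefitinib and saline had nearly equal means. Ifi27 rose 3.04-fold against gefitinib (1.61 ± 0.27, adjusted p = 0.00747) and 3.08-fold against saline (1.62 ± 0.27, adjusted p = 0.00378), also without each library in turn. Between gefitinib and saline it differed by 0.02 ± 0.27 (adjusted p = 0.99).

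Rsad2, or viperin, which makes a chain-terminating nucleotide, was at 21, 8.14 and 9.24 CPM in the combined libraries, 4.29, 2.98 and 3.34 CPM in the gefitinib libraries and 7.11, 3.33 and 3.99 CPM in the saline libraries. Combined 1 was far above every other library, and saline 1 was higher than all gefitinib libraries. Rsad2 rose against gefitinib (1.85 ± 0.40, adjusted p = 0.0212), a call lost without combined 1 or any 1 gefitinib library (adjusted p from 0.0552 to 0.0766), and against saline (1.41 ± 0.40, adjusted p = 0.0366), a call lost without combined 1, gefitinib 3, saline 2 or saline 3 (adjusted p from 0.0533 to 0.135). Cmpk2, its neighbour in the genome and a mitochondrial nucleotide kinase, was at 13.5, 8.52 and 9.11 CPM in the combined libraries, 3.55, 3.6 and 5.86 CPM in the gefitinib libraries and 7.86, 2.42 and 3.55 CPM in the saline libraries. Every combined library was above all others, without a call (1.26 ± 0.41 against gefitinib, adjusted p = 0.0888).

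Ifi44 was at 10.1, 2.72 and 5.41 CPM in the combined libraries, 1.17, 1.32 and 2.01 CPM in the gefitinib libraries and 1.77, 0.923 and 0.69 CPM in the saline libraries. Combined libraries were above all others but spread widely. It rose against saline (2.43 ± 0.52, adjusted p = 0.0112) and against gefitinib (2.02 ± 0.51, adjusted p = 0.0377), the second lost without combined 1, combined 3, saline 2 or any gefitinib library (adjusted p from 0.0517 to 0.136). The Mx genes, dynamin-like GTPases that block viral nucleocapsids, spread widely too. Mx1 was at 11, 2.87 and 5.52 CPM in the combined libraries, 2.45, 2.8 and 2.05 CPM in the gefitinib libraries and 3.24, 1.08 and 2.37 CPM in the saline libraries, and combined 1 was far above the rest. Mx2 was at 37.7, 15 and 14.8 CPM in the combined libraries, 16.6, 16.2 and 13 CPM in the gefitinib libraries and 14.5, 13.4 and 8.97 CPM in the saline libraries, again with combined 1 apart. Neither passed a test (adjusted p = 0.0613 and 0.115 against saline).

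Of the remaining effectors, 4 rose against saline with smaller folds. Samd9l, a restriction factor against poxviruses, was at 18, 14.6 and 13.4 CPM in the combined libraries, 7.33, 12.3 and 10.2 CPM in the gefitinib libraries and 7.22, 5.04 and 7.48 CPM in the saline libraries (1.22 ± 0.23, adjusted p = 0.00596). Xaf1, a pro-apoptotic partner of XIAP, was at 12.5, 8.16 and 9.46 CPM in the combined libraries, 4.48, 6.96 and 6.28 CPM in the gefitinib libraries and 4.99, 3.21 and 3.92 CPM in the saline libraries (1.31 ± 0.25, adjusted p = 0.00622). In both, combined libraries were above all others. Ifi35 was at 35.5, 33.7 and 36.3 CPM in the combined libraries, 33.5, 35.4 and 36 CPM in the gefitinib libraries and 27.9, 26.9 and 27.7 CPM in the saline libraries, with little spread, and rose by 0.35 ± 0.08 (adjusted p = 0.0187), a call lost without combined 1, combined 3 or saline 2 (adjusted p from 0.0576 to 0.061). Both treated groups lay above saline for Ifi35 and differed by 0.01. Gm11626 overlaps 16.8% of the Ifi35 exons on the opposite strand.

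Rtp4, a chaperone of G protein-coupled receptors that shares 13.9% of its exon bases with Gm45338, was at 21.3, 13 and 16 CPM in the combined libraries, 10.7, 14.7 and 14.8 CPM in the gefitinib libraries and 11.4, 9.5 and 11.1 CPM in the saline libraries. It rose against saline (0.65 ± 0.20, adjusted p = 0.0484), and the call was lost on leaving out any library except combined 2 and gefitinib 1 (adjusted p from 0.0601 to 0.17). Trim30a, a mouse ubiquitin ligase of the TRIM family, was at 7.11, 3.94 and 7.81 CPM in the combined libraries, 4.09, 5.13 and 5.56 CPM in the gefitinib libraries and 5.67, 2.83 and 3.86 CPM in the saline libraries, with overlap in every comparison and no call.

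The few interferon genes found in the table were hardly counted. Of 21 ligands listed, 3 are in the table and none passed the filter. The others, which include all listed interferon alpha, beta and lambda genes, were not matched to the table, so no level is known for them. Ifng had 8 counts in gefitinib 2, 12 in saline 1 and 3 in saline 3, and 0 in the other 6 libraries, which by counting error alone allows up to 3 counts in each. Ifnk had 5 counts in gefitinib 1 and Ifnz 1 count in combined 3, with 0 elsewhere. Library saline 1 had the highest level of the saline group for 31 of the 46 genes (67.4%), against 33.2% of all tested genes. These were 8 of 9 in the interferon gamma core, 7 of 10 in the type I core, 11 of 12 antiviral effectors, 3 of 4 in ubiquitin-like conjugation, 1 of 4 transcription factors, 1 of 4 sensors and none of Parp9, Parp14 and Dtx3l.

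Of 9 receptors and kinases, 1 was called in the combined group against gefitinib (11.1%, against 4.96% of all genes called higher) and 2 against saline (22.2%, against 9.37%), all higher. Ifngr1, the ligand-binding chain of the interferon gamma receptor, was at 25.8, 29.9 and 31.8 CPM in the combined libraries, 18.1, 20.5 and 19 CPM in the gefitinib libraries and 19.6, 18.2 and 20.1 CPM in the saline libraries. Combined libraries were all above the others, and Ifngr1 rose by 0.60 ± 0.11 against gefitinib (adjusted p = 0.011) and by 0.60 ± 0.11 against saline (adjusted p = 0.00598). Il10rb, a receptor chain shared by interferon lambda and interleukin 10, was at 17.1, 18.7 and 15 CPM in the combined libraries, 6.92, 13 and 11.1 CPM in the gefitinib libraries and 8.74, 7.56 and 10.4 CPM in the saline libraries and rose against saline (0.93 ± 0.23, adjusted p = 0.0196).

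The chains of the type I receptor were called in no comparison. Ifnar1 was at 40.8, 34.7 and 35.6 CPM in the combined libraries, 38.1, 34.7 and 44.9 CPM in the gefitinib libraries and 38.7, 37.2 and 38.8 CPM in the saline libraries, and Ifnar2 at 76.3, 63.4 and 79.8 CPM in the combined libraries, 90.6, 85.2 and 90.3 CPM in the gefitinib libraries and 94, 82.3 and 98.2 CPM in the saline libraries. Their log2 fold changes for combined against saline were -0.05 ± 0.11 and -0.32 ± 0.11 (adjusted p = 0.83 and 0.0772). Jak1, Jak2, Tyk2, Ifngr2 and Ifnlr1 were called in no comparison, with log2 fold changes for combined against saline of 0.00, -0.07, -0.02, 0.26 and 1.41.

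Other targets of the same programmes were examined from lists that hold none of the 46. Of 36 further type I targets tested, 5 rose in the combined group against gefitinib (13.9%, against 4.96% of all genes) and 11 against saline (30.6%, against 9.37%). With gefitinib against saline 1, the secreted glycoprotein gene Lgals3bp, rose (2.78%, against 0.547%). Their median log2 fold changes were 0.33, 0.53 and 0.35. Examples are Ifitm3, a membrane protein that blocks viral fusion, at 463, 362 and 478 CPM in the combined libraries, 229, 262 and 296 CPM in the gefitinib libraries and 194, 159 and 126 CPM in the saline libraries, and the schlafen gene Slfn2, at 10, 10.7 and 14.8 CPM in the combined libraries, 4.05, 4.98 and 2.89 CPM in the gefitinib libraries and 3.16, 2.13 and 3.45 CPM in the saline libraries. Both rose against gefitinib (0.73 ± 0.18 and 1.57 ± 0.27, adjusted p = 0.0335 and 0.0073) and against saline (1.44 ± 0.18 and 2.02 ± 0.27, adjusted p = 0.000797 and 0.0012).

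Of 27 further interferon gamma targets tested, 4 rose (14.8%, against 4.96% of all genes) and 1 fell (3.7%, against 4.11%) in the combined group against gefitinib, and 7 rose against saline (25.9%, against 9.37%). With gefitinib against saline 2, Icam1 and Psme1, rose (7.41%, against 0.547%). Their medians were 0.21, 0.62 and 0.53. The chemokine genes Cxcl10 and Cxcl11, whose products bind the same receptor, parted. Cxcl10 was at 22.7, 20.5 and 6.86 CPM in the combined libraries, 3.24, 4.5 and 1.8 CPM in the gefitinib libraries and 2.02, 2.08 and 2.33 CPM in the saline libraries and rose against gefitinib (2.39 ± 0.45, adjusted p = 0.0113), whereas Cxcl11 was at 3.76, 2.86 and 3.4 CPM in the combined libraries, 6.57, 5.46 and 9.13 CPM in the gefitinib libraries and 5.02, 6.67 and 3.92 CPM in the saline libraries and fell (-1.08 ± 0.26, adjusted p = 0.0328). Icam1, the leukocyte adhesion molecule, was at 43.2, 37 and 33.6 CPM in the combined libraries, 25.3, 25.2 and 24.1 CPM in the gefitinib libraries and 15.9, 11.1 and 13.6 CPM in the saline libraries. It rose in all 3 comparisons, by 0.61 ± 0.14 for combined against gefitinib, 1.48 ± 0.15 for combined against saline and 0.87 ± 0.15 for gefitinib against saline (adjusted p = 0.0297, 0.000254 and 0.0276). Psme1, a proteasome activator subunit, was at 111, 115 and 133 CPM in the combined libraries, 106, 102 and 103 CPM in the gefitinib libraries and 71.3, 68.6 and 57.9 CPM in the saline libraries and rose against saline in both treated groups (0.86 ± 0.11 and 0.65 ± 0.11, adjusted p = 0.000966 and 0.0296).

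Upstream of interferon production, 14 sensing genes were tested. In the combined group the adaptor of toll-like receptors Ticam1 rose (0.68 ± 0.14, adjusted p = 0.0145) and the adaptor of RNA sensors Mavs fell (-0.50 ± 0.13, adjusted p = 0.0448) against gefitinib. Each was 1 of 14 (7.14%), against 4.96% and 4.11% of all genes called higher and lower. Against saline 5 rose (Ticam1, Ikbke, Irf8, Sting1 and Tlr7, 35.7% of the list, against 9.37% of all genes) and Irf2, a factor that represses interferon targets, fell (-0.72 ± 0.13, adjusted p = 0.00426). That 1 of 14 (7.14%) is no more than the 8.32% of all genes called lower. The RNA-sensing receptor gene Tlr7 was at 1.99, 4.46 and 7.33 CPM in the combined libraries, 1.06, 1.65 and 1.78 CPM in the gefitinib libraries and 1.47, 0.538 and 1.62 CPM in the saline libraries. Of 8 negative regulators, the phosphatase gene Ptpn6 rose (0.53 ± 0.12, adjusted p = 0.0169) and Pias3, an inhibitor of Stat proteins, fell (-0.61 ± 0.19, adjusted p = 0.049) in the combined group against saline, each 12.5% of the list, against 9.37% and 8.32% of all genes. Ptpn6 and Tlr7, like Irf8, are expressed by myeloid cells, of which some markers moved with the groups and others overlapped, as given above. The part of these cells in the levels of the 3 genes was not tested.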

How the data were processed

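Liver RNA of 9 libraries was sequenced, 3 per group. Column-purified RNA went into SMARTer messenger RNA libraries, per the labels' protocols. The submitters' processing notes name the genome builds GRCm38 and mm10, while aligner, counter and strand setting are not stated there or in the labels. Raw counts for every gene were deposited as whole numbers, without normalisation. Beside them stand FPKM columns, computed by the authors per the file headers. All 18 value columns matched a library by name. No libraries repeated each other (chi-square per degree of freedom 74.8 to 155 within groups).

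Counts were fitted with edgeR 4.0.16 in R 4.3.3. The filter filterByExpr at its defaults left 18113 of 27945 genes, libraries were scaled by TMM, and 1 quasi-likelihood fit over all 9 libraries (6 residual degrees of freedom) gave the 3 comparisons. A gene was called at a Benjamini-Hochberg adjusted p under 0.05 over all tested genes, with no minimum fold. Levels are TMM-scaled CPM. The fit was tested on simulated data.

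The 46 genes, the roles and the further lists were chosen with earlier results of these data known, so no test was made over a list. All 46 may be named, with values in each library for those called or not overlapping. From the ligand and receptor lists any gene with a count may be named, and from the others those called. Of the pathway lists, 1 gene is not reported here. Renamed symbols were matched through RefSeq synonyms. Promoter windows are from RefSeq on GRCm38.p6, and shared stretches and exon overlaps are from GENCODE M21.

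Alternatives were median-ratio scaling, library size alone, no filter, only the 6 libraries compared, the replicate number as a block, DESeq2 1.42.0, limma 3.58.1 on log2(FPKM + 1) and log2(FPKM + 0.1), and each library left out in turn. Same-numbered libraries did not deviate together (correlations from -0.076 to 0.072), so the main fit did not use the numbers as pairs. Correlations this near to none cannot exclude a weak pairing, and the labels name none. Python 3.11.15 with matplotlib 3.10.9 drew the figures.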

Additional observations from a re-analysis of the deposited data

How the results depend on the processing

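No called gene changed direction under the 17 alternatives, of which 9 leave out 1 library each. The interferon gamma median for combined against gefitinib, -0.01, lay on either side of 0, from -0.13 without combined 1 to 0.18 without scaling factors. For combined against gefitinib, where 13 of the 46 genes were called, DESeq2 called 22 of the 46, and leaving out 1 library gave 6 to 14. For combined against saline, where 27 were called, leaving out 1 library gave 17 to 25, and no other alternative moved the count by over 1.5 times. For gefitinib against saline, where 3 were called, DESeq2 called 13, limma on log2(FPKM + 1) and on log2(FPKM + 0.1) called 1 each, the fit without a filter called 1, and leaving out 1 library gave 0 to 5. With the replicate number as a block, which these data gave no ground to use as a pairing, the counts were 9, 23 and 3. Calls over all genes were 1644, 3205 and 206 in the main fit and 1028, 2496 and 82 with the block. DESeq2 called 2757, 4215 and 867 of all genes, and leaving out 1 library gave 751 to 1497, 2065 to 2967 and 32 to 171. For gefitinib against saline, limma called 103 of all genes on log2(FPKM + 1) and 115 on log2(FPKM + 0.1), and the fit without a filter 82. The type I median was 0.66 for combined against gefitinib and 0.99 for combined against saline on log2(FPKM + 1), a scale that understates changes of low genes. For gefitinib against saline, leaving out 1 library moved the type I median between 0.32 and 0.85 and the interferon gamma median between 0.33 and 0.85, in both cases highest without saline 1. Why the tools differ in the number of calls was not tested. The widest standard errors were those of Gbp6 (0.55 to 0.56, with 183 to 1200 counts), Ifi44 and Mx1. Counting error weighs most on low counts, such as the 8 to 26 of Oas3 and 11 to 26 of Ubd in the saline libraries. The limit of 3 counts given for Ifng covers counting error only, whereas the standard errors also hold the spread between libraries.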
